A study of Mus musculus with 23 samples.

Results

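The TGF-beta and bone morphogenetic protein (BMP) pathway was described through 51 genes, which encode its ligands, latency proteins, receptors, binding proteins, SMADs and some targets. They were chosen by symbol from a list of known pathway genes, by their known roles, and all 51 were found among the 21402 genes of the table. TGF-betas are secreted in a latent form that is stored in bone matrix and released when bone is resorbed. Ligands of the family bind pairs of type I and type II receptors, which phosphorylate receptor SMADs that enter the nucleus with SMAD4. BMPs induce bone formation, TGF-beta signalling in osteocytes takes part in the remodelling of the matrix around their lacunae, and extracellular antagonists such as noggin limit both the range and the strength of the signal.

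RNA was measured in bone chips enriched in osteocytes, from tibia and femur shafts of C57BL/6 mice (C57BL/6J in the study's methods) aged 5 months. Marrow was flushed out and the shafts went through serial enzyme digestions meant to strip osteoblasts, osteoclasts and lining cells from the surfaces. FNDC5 KO and WT mice of each sex received for 2 weeks a low-calcium diet (0.01% calcium) or a control diet (0.6% calcium), which gave 8 groups. KO females on the low-calcium diet were 2 mice, and the other groups were 3 mice each: KO females on control, WT females on low-calcium and on control, KO males on low-calcium and on control, and WT males on low-calcium and on control. Each mouse was 1 library, 23 in all. The KO is global, with part of 1 exon absent in every tissue, and both genotypes were bred from heterozygous parents. Fndc5, the deleted gene and source of irisin, had 0 to 12.4 normalized counts in KO mice and 0 to 17.8 in WT mice. The KO value of 12.4 was that of mouse 5, a female on the low-calcium diet, and no other KO mouse exceeded 2.69. At this level the counts could not check the genotype labels, and the reason for the value in mouse 5 was not tested.

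Normalized counts, which are reads divided by 1 size factor per library, are the unit of all levels. Reads per library were 7217601 to 18606399 in WT females on the low-calcium diet and 17942790 to 33352631 in the other 20 mice. The shallowest libraries were mouse 17 (7217601 reads) and mouse 16 (11256675 reads), both WT females on the low-calcium diet. The study's methods state a low share of mapped reads for all 3 mice of that group. They propose bacterial contamination as a possible reason. They add that reads left unfiltered may raise the level of some genes, but expect no large influence on the data as a whole. Its effect on the pathway genes was not tested. Over the pathway genes, mouse 17 lay a median of 0.54 below its group mates on the log2 scale and was the lowest of its group in 40 of 50 genes, and mouse 29, a KO male on the low-calcium diet, lay 0.44 below and was the lowest in 43. The osteocyte markers were present in every library, with a summed level of 23723 in mouse 29 and up to 96712 in a WT female on the low-calcium diet. RNA of other cells was present too, since neutrophil markers summed to 252293 to 630992 and erythroid markers to 64552 to 158316. In such bulk RNA, fewer cells of a type and less RNA per cell cannot be told apart.

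Per kilobase of exon, Tgfb1 was the most abundant pathway gene, with a mean of 1289 normalized counts per kb over the 23 mice and a range of 1133 to 1599.6. The BMP target genes Id2 (568) and Id1 (550.1) and the TGF-beta induced matrix protein gene Tgfbi (498) came next, with ranges that overlapped each other. Among BMP ligands, Bmp2 had the highest mean (207 per kb), followed by Bmp8a (147) and Bmp3 (135). Noggin stood much lower at 26.8 per kb, and the lowest means were those of Chrd (3.08), Gdf5 (2.55) and Bmpr1b (0.479). Bmpr1b, a BMP type I receptor with 0 to 15.5 normalized counts, did not pass the filter on low values, so 50 of the 51 genes were tested.

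**Figure D1:**
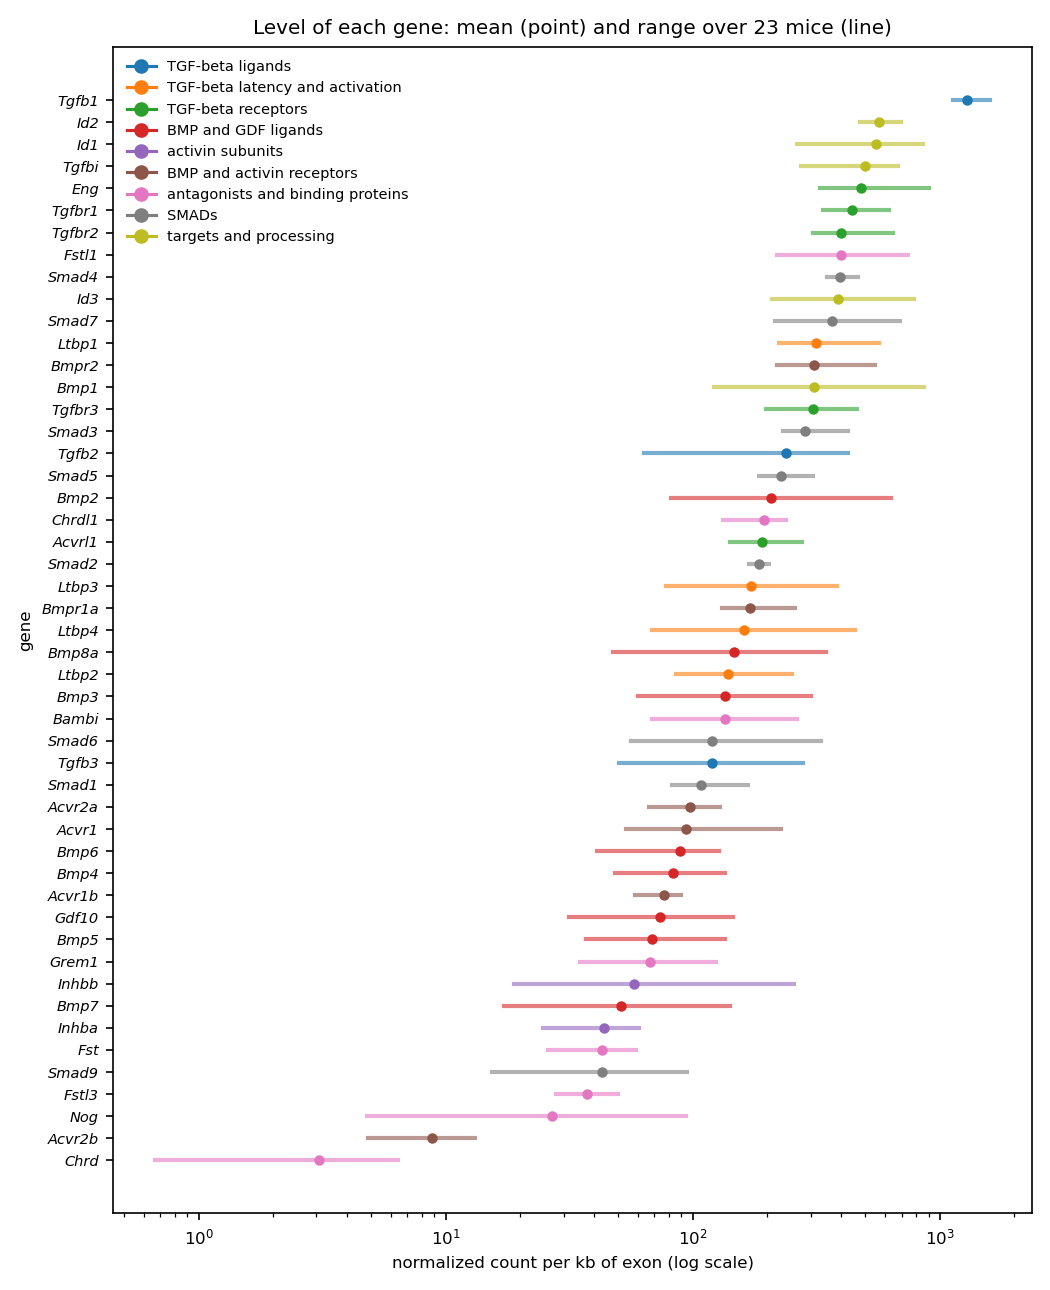
Level of the 49 pathway genes above 0 in every mouse, as normalized count per kb of exon on a log axis, with the mean (point) and the range over 23 mice (line), coloured by role. Tgfb1 stands at the top at 1289 per kb, and Chrd is the lowest plotted at 3.08.

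The low-calcium diet was compared with the control diet as a mean over both genotypes and sexes, using limma on log2 counts with a pseudocount of 1 and p-values adjusted over all 15638 genes tested. Of the 50 pathway genes, 21 rose and 3 fell with the low-calcium diet at an adjusted p under 0.05. Of all genes tested, 16% rose and 15.4% fell in this comparison. The standard error (SE) is given with each log2 fold change. The median log2 fold change was 0.16 for the pathway genes and -0.01 for all genes. All 24 were also called by edgeR and by DESeq2, each with 25 calls, on the recovered reads. Leaving out any 1 mouse left 19 to 26 genes called, and 18 of the 24 passed in every such fit.

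Females differed from males in more pathway genes. As a mean over both genotypes and diets, 37 of 50 genes were higher and 3 lower in females than in males, where 20.1% of all genes tested were higher and 20% lower. The median log2 fold change was 0.39 for the pathway genes and -0.00 for all genes. All 40 were called by edgeR and by DESeq2, each with 41 calls, and 32 of the 40 passed in each fit without 1 mouse. Between KO and WT mice the corresponding mean comparison called 0 of 50 pathway genes with limma, where 0.0576% of all genes were called. At an unadjusted p under 0.05 limma gave 11 of 50 pathway genes and 9.04% of all genes, and edgeR and DESeq2 called 0 each after adjustment. Without mice 16 and 17, which left 1 WT female on low calcium, limma called some pathway genes in this comparison. The share of all genes called in that fit is not given, so these calls are not read as particular to the pathway.

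**Figure D2:**
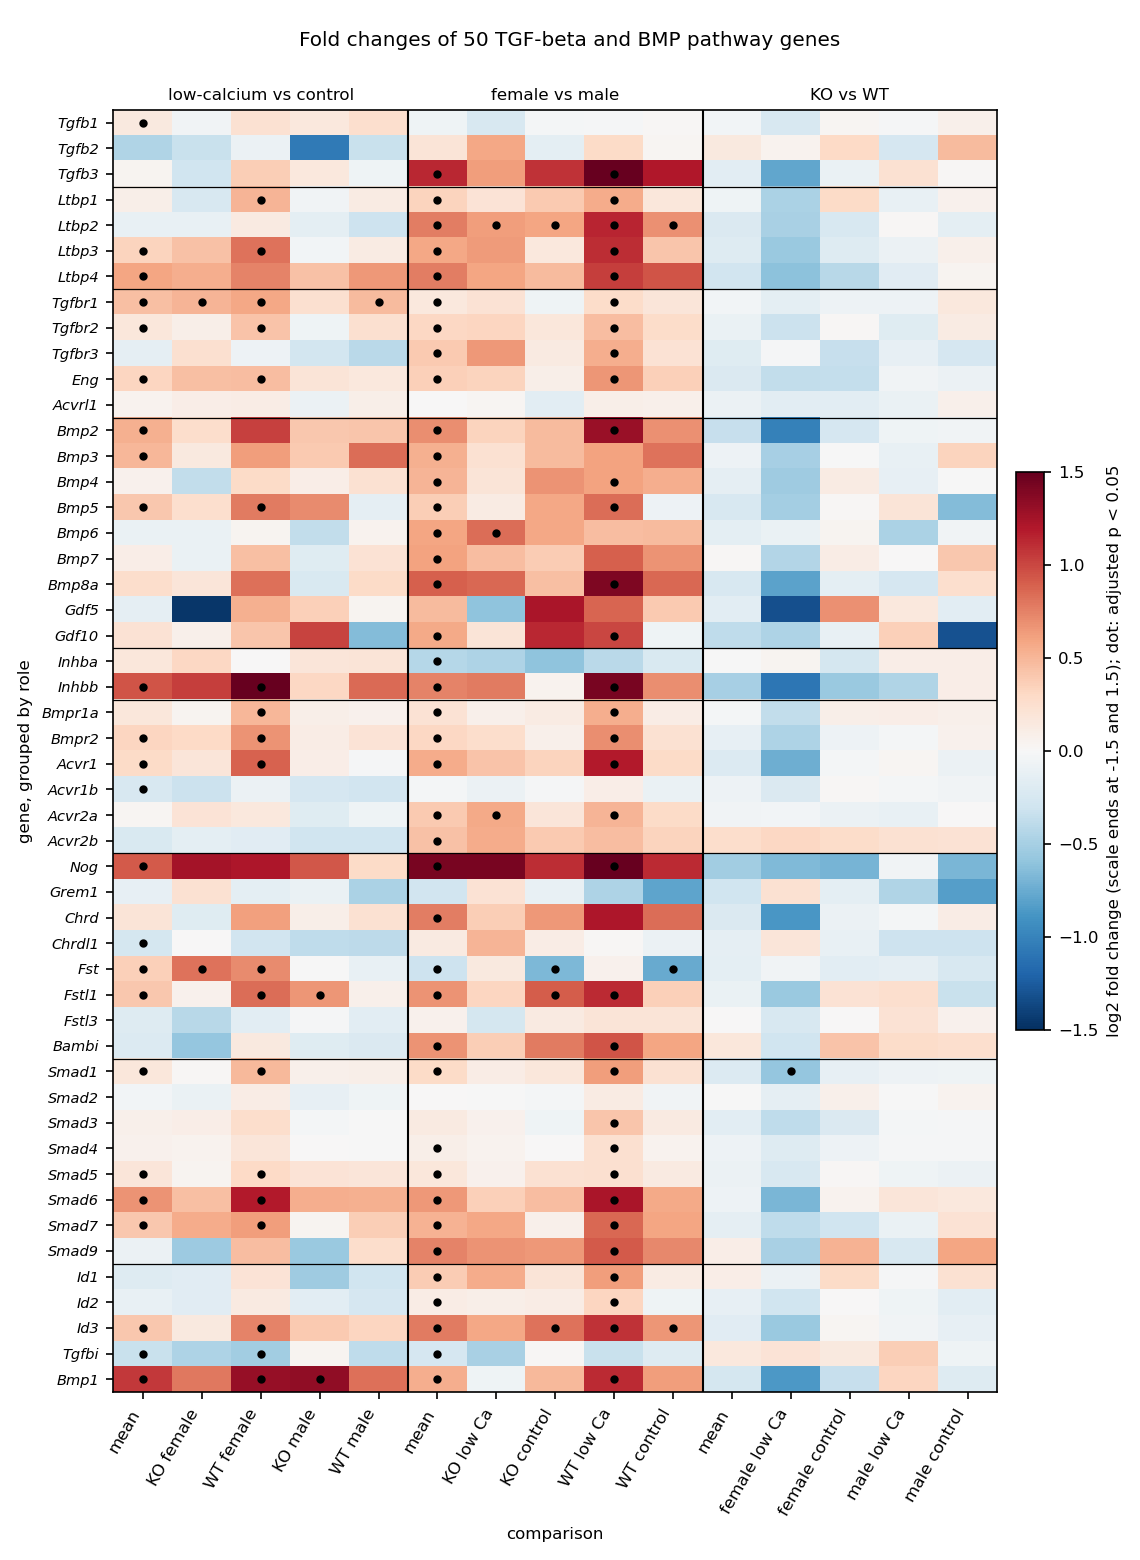
Log2 fold change of the 50 genes tested (rows, grouped by role) for low-calcium against control, female against male and KO against WT (columns, the mean and each stratum), with a dot at an adjusted p under 0.05. Beside the mean columns, the dots gather in WT females for diet (19 genes) and in WT mice on the low-calcium diet for sex (33 genes), and 1 dot stands in the KO against WT columns.

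Within single groups, most calls came from comparisons that included WT females fed low calcium. In WT females 18 pathway genes rose and 1 fell with the low-calcium diet, against 9.49% and 6.62% of all genes. Fed low calcium, WT females had 33 genes higher and 0 lower by limma than males of that genotype, against 17.1% and 14.8% of all genes, with 38 genes at an unadjusted p under 0.05 (42.3% of all genes). The diet called 2 genes in KO females (7.40% of all genes were called), 2 in KO males (3.41%) and 1 in WT males (4.88%). Sex called 3 genes in KO mice on the low-calcium diet (2.59% of all genes), 4 in KO mice on control (3.91%) and 3 in WT mice on control (1.89%). Comparisons that share a group share its mice, so these counts are not independent of one another.

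On simulated counts, limma made more false calls than its threshold allows where WT females fed low calcium took part. In that group 2 libraries are shallow, and edgeR stayed near its threshold. Changed genes were simulated only in that group, so the simulation cannot show whether the excess is particular to it. Every gene and library was simulated with the same relative spread between mice. Libraries that lie apart, such as that of mouse 17, were therefore not part of the simulation, and it gives no false call rate for them. Here edgeR called all 19 of the diet genes in WT females (21 in all) and all 33 of the sex genes on the low-calcium diet (35 in all), and DESeq2 called them too (24 and 37 in all). The number of diet genes in WT females was 27 without mouse 17, 11 without mouse 16, 9 without mouse 18, 11 without WT control mouse 1 and 9 without WT control mouse 14. It was 23 without mice 16 and 17, which left mouse 18 as the only mouse of its group. The number of sex genes on the low-calcium diet ranged over 24 to 36 without any 1 mouse. Of these calls, 8 of 19 for diet and 19 of 33 for sex passed in every such fit.

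The small counts moved with single mice. For these fits and those of the preceding paragraph, the share of all genes called is not given. The diet count was 0 in KO females without mouse 6, 1 without mouse 4 or 5, 4 without mouse 18 and 7 without mouse 20. In KO males it was 1 without mouse 10, 12, 27 or 31 and 5 without mouse 29. In WT males it was 0 without mouse 9, 2 without mouse 12 or 25 and 3 without mouse 17, 18, 20 or 29. The sex count in KO mice on the low-calcium diet was 0 without mouse 5, 6 or 31, 1 without mouse 1, 8, 9, 10, 16, 19, 26, 27, 28 or 29, and 5 without mouse 20. In KO mice on control it was 1 without mouse 20 or 27, 8 without mouse 18 or 29 and 9 without mouse 17. In WT mice on control it was 1 without mouse 1, 7 or 32, 5 without mouse 4, 17, 18 or 20 and 6 without mouse 29.

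**Figure D3:**
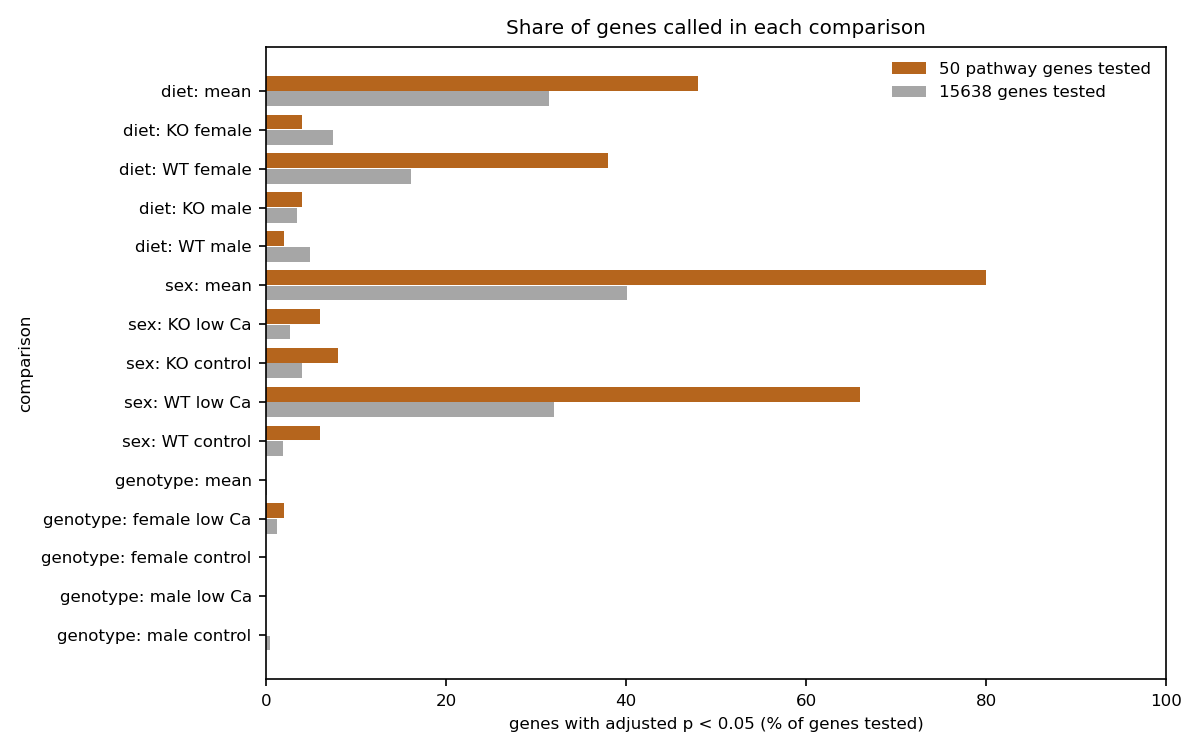
Share of genes called at an adjusted p under 0.05 in each comparison, in percent of the 50 pathway genes tested (brown) and of all 15638 genes tested (grey). The brown bar exceeds the grey one most for sex, in the mean and in WT mice on the low-calcium diet. Among the diet comparisons it is shorter in KO females and in WT males. For KO against WT a brown bar stands only in females on low calcium, while small grey shares belong to the mean and to males on either diet.

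Markers of other cells also differed by diet and sex. The 15 osteoblast and bone matrix markers summed to 449131 to 1457840 normalized counts in low-calcium mice, against 132000 to 453650 in control mice, and all 15 rose with the low-calcium diet, as did 16% of all genes. WT females on the low-calcium diet stood at 843165 to 1457840, and 12 of 13 endothelial markers were higher in them than in WT males on that diet (17.1% of all genes). On that diet the osteoblast and bone matrix sum was 449131 to 766952 in WT males. In KO mice on that diet it was 544999 to 557614 in females and 486631 to 861548 in males. On control it was 413229 to 451573 in WT females and 222109 to 259881 in WT males. KO mice on control had 259663 to 453650 in females and 132000 to 233526 in males. Osteoclast markers summed to 67134 to 96820 in low-calcium mice and 56799 to 75641 in control mice. Chondrocyte markers summed to 8778 to 19225 in WT females on low calcium, against 6459 to 6829 in WT females on control, and to 1849 to 2669 in WT males on low calcium. Over all mice they were 3583 to 19225 in females and 1075 to 6695 in males, and 1 of the 8 tested was called higher in females. The neutrophil markers summed to 252293 to 555226 in females and 401555 to 630992 in males, and 10 of the 11 tested were lower in females, as were 20% of all genes. The adipocyte markers, 8 of 8 tested, were higher in females, as were 20.1% of all genes. No list was at 0 throughout, and the part of these cells in the pathway results was not tested.

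Among the TGF-beta ligands, Tgfb3 was the one that differed by sex. Tgfb3 had 384 and 437 normalized counts in KO females and 305, 169.7 and 363 in KO males on the low-calcium diet. On control it had 314, 457 and 898 in KO females and 258, 227 and 231 in KO males. In WT mice it had 859, 430.2 and 943 in females and 174, 288 and 232 in males on the low-calcium diet, and 554, 543 and 533 in females and 195, 269 and 249.8 in males on control. Every female exceeded every male of the same genotype and diet, and the mean log2 fold change was 1.13 (SE 0.17, adjusted p = 5.97e-05), a 2.2-fold difference. In single groups the limma call was made in WT mice on the low-calcium diet (1.63, adjusted p = 0.00125) and narrowly missed in WT mice on control (1.20, adjusted p = 0.0584). The study reported higher Tgfb3 in females than in males on control in both genotypes. Its threshold was another, an unadjusted p under 0.01 with a log2 fold change over 1.

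Tgfb1, which encodes the main TGF-beta isoform of bone matrix, rose with the low-calcium diet by a log2 value of 0.15 (SE 0.04, adjusted p = 0.0181). It ranged over 5713 to 8065 normalized counts in low-calcium mice and 5924 to 6745 in control mice, so the ranges overlapped. The increase was not called without KO female mouse 5 (adjusted p = 0.0596). Tgfb2 had a log2 fold change of -0.45, adjusted p = 0.104, for diet and of 0.19, adjusted p = 0.502, for sex, and neither passed the limma test.

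All 4 genes of the latent TGF-beta binding protein family were higher in females than in males (20.1% of all genes were). Ltbp2 showed this in every group. It had 1143 and 1263 normalized counts in KO females and 779, 705 and 849.7 in KO males on the low-calcium diet, and 1004, 1367 and 1594 in KO females and 848, 840.3 and 891 in KO males on control. In WT mice it had 1607, 1439 and 2072 in females and 834, 700.3 and 767 in males on the low-calcium diet, and 1460.3, 1514 and 1638 in females and 817, 1153 and 913 in males on control. Females and males did not overlap in any of the 4 pairs of groups, and the mean log2 fold change was 0.76 (SE 0.08, adjusted p = 1.93e-06). Ltbp2 was called in all 4 single comparisons by limma, with log2 fold changes of 0.63, adjusted p = 0.0455 and 0.59, adjusted p = 0.0346 in KO mice on low-calcium and control, and of 1.14, adjusted p = 0.000187 and 0.69, adjusted p = 0.0187 in WT mice. The call in KO mice on the low-calcium diet was lost without any 1 of its 5 mice, with adjusted p up to 0.366. That in KO mice on control was lost without mouse 10, 19, 20, 27 or 28, and that in WT mice on control without mouse 1, 7 or 32 (adjusted p up to 0.178 and 0.122).

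Ltbp4 and Ltbp3 moved with both diet and sex, whereas Ltbp2 did not pass the test for diet (-0.11, adjusted p = 0.298). Ltbp4 ranged over 685 to 2933 (median 1064) normalized counts in low-calcium mice and 442 to 1605 (median 743) in control mice. Its log2 fold change was 0.59 (SE 0.14, adjusted p = 0.00303) for diet and 0.76 (SE 0.14, adjusted p = 0.000332) for sex. The ranges of Ltbp4 over all mice overlapped between diets. Ltbp3, a further member of the family, had 704 to 3466 (median 1711) normalized counts in low-calcium mice and 985 to 1826 (median 1322) in control mice and 1075 to 3466 (median 1711) normalized counts in females and 704 to 1715 (median 1223) in males. Its log2 fold change was 0.34 (SE 0.12, adjusted p = 0.0441) for diet, a call lost in 16 of 23 fits without 1 mouse, and 0.58 (SE 0.12, adjusted p = 0.00111) for sex. Ltbp1 had 2846 to 6064 (median 3371) normalized counts in females and 2399 to 3393 (median 2936) in males. It was higher in females by 0.33 (SE 0.09, adjusted p = 0.00545), and its diet value in WT females was 0.51, adjusted p = 0.0449, which was not called without WT control mice 1, 14 or 32, or without mice 16 or 18 (adjusted p = 0.0504 to 0.230).

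The type I TGF-beta receptor Tgfbr1 was the receptor gene with the clearest change with diet. It had 3121 and 3869 normalized counts in low-calcium and 2219, 2481 and 2629.5 in control KO females, and 4060.2, 3972 and 3499 in low-calcium and 2582, 2376 and 2774 in control WT females. Among males it had 3276, 2751 and 2969 in low-calcium and 2372, 2450.1 and 2820.2 in control KO mice, and 2908, 3360.4 and 3233 in low-calcium and 2197, 2313 and 2315 in control WT mice. The groups were separate in all but KO males, and the mean log2 fold change was 0.45 (SE 0.05, adjusted p = 3.2e-06). Single comparisons were called by limma in KO females (0.51, adjusted p = 0.00981), WT females (0.58, adjusted p = 0.000862) and WT males (0.48, adjusted p = 0.00706), and the value in KO males was 0.24, adjusted p = 0.19. The call in KO females was lost without mouse 4 or mouse 6 (adjusted p = 0.0559 to 0.191), and that in WT males without mouse 9 (adjusted p = 0.0535).

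The other receptors of TGF-beta changed less. The type II receptor Tgfbr2 had 2942 to 5294 (median 3396) normalized counts in females and 2513 to 3332 (median 2883) in males, which overlapped. It rose with the low-calcium diet by 0.17 (SE 0.06, adjusted p = 0.0239), a call lost without KO female mouse 6 (adjusted p = 0.077), and was higher in females by 0.31 (SE 0.06, adjusted p = 0.000354). Endoglin (Eng), a co-receptor of vascular endothelium, had 1328 to 3646 (median 2214) normalized counts in females and 1485 to 1906 (median 1707) in males. It rose with diet by 0.32 (SE 0.07, adjusted p = 0.00192) and was higher in females by 0.36 (SE 0.07, adjusted p = 0.000576). Betaglycan (Tgfbr3), which presents ligand to the signalling receptors, had 1541 to 3019 (median 2313) normalized counts in females and 1293 to 2723 (median 1674) in males. It was higher in females by 0.39 (SE 0.10, adjusted p = 0.00308) and had -0.13, adjusted p = 0.324 for diet. Acvrl1, an endothelial type I receptor, had 0.05, adjusted p = 0.661 for diet and 0.01, adjusted p = 0.931 for sex and passed neither limma test.

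All BMP and GDF ligand genes but Gdf5 were higher in females than in males, 8 of the 9 tested, beside 20.1% of all genes. Bmp8a had the largest fold change of them, a mean log2 value of 0.90 (SE 0.15, adjusted p = 0.000211). It had 775, 516 and 830.0 normalized counts in WT females and 213, 289.6 and 287 in WT males on the low-calcium diet, and 357 and 442 in KO females and 322, 114 and 282 in KO males. Females and males were also separate on the control diet, with 279 to 544 over all females and 177 to 277 over all males. Bmp8a has a closely similar copy, Bmp8b, so reads of these genes could be split or dropped by counting unique reads, and the value is uncertain to that extent. Bmp6, made by endothelial and other cells, did not overlap between females and males in any of the 4 pairs of groups and had 322 to 497 (median 424) normalized counts in females and 160.5 to 336 (median 290.0) in males, a log2 fold change of 0.59 (SE 0.09, adjusted p = 9.79e-05).

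Bmp2 and Bmp3 moved with both diet and sex. Bmp2, an inducer of osteoblast differentiation, had 2024, 701 and 2263 normalized counts in low-calcium and 674, 581 and 961 in control WT females, with mouse 17 as the lowest of the first group. Its log2 fold change was 0.53 (SE 0.19, adjusted p = 0.0387) for diet, which was not called in 15 of 23 fits without 1 mouse (adjusted p up to 0.0779), and 0.70 (SE 0.19, adjusted p = 0.00665) for sex. Bmp3, an abundant BMP of bone that opposes osteogenic BMPs, had 574 to 2234 (median 1082) normalized counts in low-calcium mice and 443 to 1245 (median 789) in control mice. Its log2 fold change was 0.50 (SE 0.14, adjusted p = 0.00902) for diet and 0.53 (SE 0.14, adjusted p = 0.00473) for sex. Bmp5 rose with diet by 0.40 (SE 0.12, adjusted p = 0.0137), with 428, 342 and 545 normalized counts in low-calcium and 247, 230.4 and 276 in control WT females. These did not overlap, and Bmp5 was also higher in females by 0.37 (SE 0.12, adjusted p = 0.0183), a call lost without mouse 6 (adjusted p = 0.0583).

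For Bmp4, Bmp7 and Gdf10, sex was called and diet was not. Bmp4, an inducer of bone and of vessels, had 147 to 303 (median 212) normalized counts in females and 109 to 195 (median 154) in males and was higher in females by 0.50 (SE 0.10, adjusted p = 0.000889). Bmp7, a BMP with osteogenic activity, had 143 to 571 (median 230.4) normalized counts in females and 69.4 to 254 (median 148) in males and a log2 fold change of 0.60 (SE 0.21, adjusted p = 0.0283). Gdf10 had 234 to 759.8 (median 415) normalized counts in females and 164 to 589 (median 309) in males and a value of 0.57 (SE 0.18, adjusted p = 0.015). The Bmp7 call was lost without mouse 6, 16, 28 or 32 (adjusted p = 0.0522 to 0.0721). Gdf5, a ligand of joint formation, had 0 to 15.2 normalized counts over all mice, and its sex value of 0.47, adjusted p = 0.433 did not pass the limma test.

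The activin subunit genes went in opposite directions by sex. Inhbb, which encodes the beta B subunit, had 252 and 319.5 normalized counts in low-calcium and 109, 141 and 169 in control KO females, and 497, 405 and 1094 in low-calcium and 223, 129 and 285 in control WT females. In males it had 242, 80.5 and 226 in low-calcium and 145, 105 and 153 in control KO mice, and 161, 339.8 and 206 in low-calcium and 96.6, 129 and 153 in control WT mice. Only KO males overlapped between diets, through mouse 29. Inhbb rose with the low-calcium diet by 0.94 (SE 0.21, adjusted p = 0.00166) and was higher in females by 0.74 (SE 0.21, adjusted p = 0.00729). Inhba, the beta A subunit gene, was lower in females, with 158 to 348 (median 242) normalized counts in females and 274 to 388 (median 303) in males and a log2 fold change of -0.43 (SE 0.10, adjusted p = 0.00308).

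Among the BMP and activin receptors, 5 of the 6 tested were higher in females, beside 20.1% of all genes. The type II receptor Bmpr2 was the most abundant of them per kb (310.5) and rose with the low-calcium diet by 0.32 (SE 0.07, adjusted p = 0.00202). It had 9259, 6687 and 9858 normalized counts in low-calcium and 5428, 4754 and 5781 in control WT females, which did not overlap, and 6088 and 6219.9 in low-calcium and 4285, 5361 and 5481 in control KO females. Acvr1, the type I receptor mutated in fibrodysplasia ossificans progressiva, had 342 to 1099.9 (median 472) normalized counts in females and 259 to 470.4 (median 363) in males. It was higher in females by 0.56 (SE 0.11, adjusted p = 0.000438), and its diet value of 0.29 (SE 0.11, adjusted p = 0.0442) lost its call in 16 of 23 fits without 1 mouse. Acvr1b, the activin type I receptor, fell with the low-calcium diet, to 259 to 382 normalized counts against 320.2 to 396 on control, a log2 fold change of -0.24 (SE 0.06, adjusted p = 0.00517). The activin type II receptor Acvr2a had 497 to 731 (median 647) normalized counts in females and 379 to 578 (median 493) in males and was higher in females by 0.39 (SE 0.07, adjusted p = 0.000311). The related Acvr2b had only 19 to 51.8 (median 40.5) normalized counts in females and 20.7 to 45.7 (median 27.8) in males and a value of 0.44 (SE 0.16, adjusted p = 0.0386), which was not called in 14 of 23 fits without 1 mouse. The BMP type I receptor Bmpr1a had 905 to 1647 (median 1109) normalized counts in females and 833 to 1203 (median 1018) in males, a difference of 0.21 (SE 0.07, adjusted p = 0.0258). The Bmpr1a call was lost without mouse 5, 10 or 16 (adjusted p = 0.0501 to 0.0518).

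**Figure D4:**
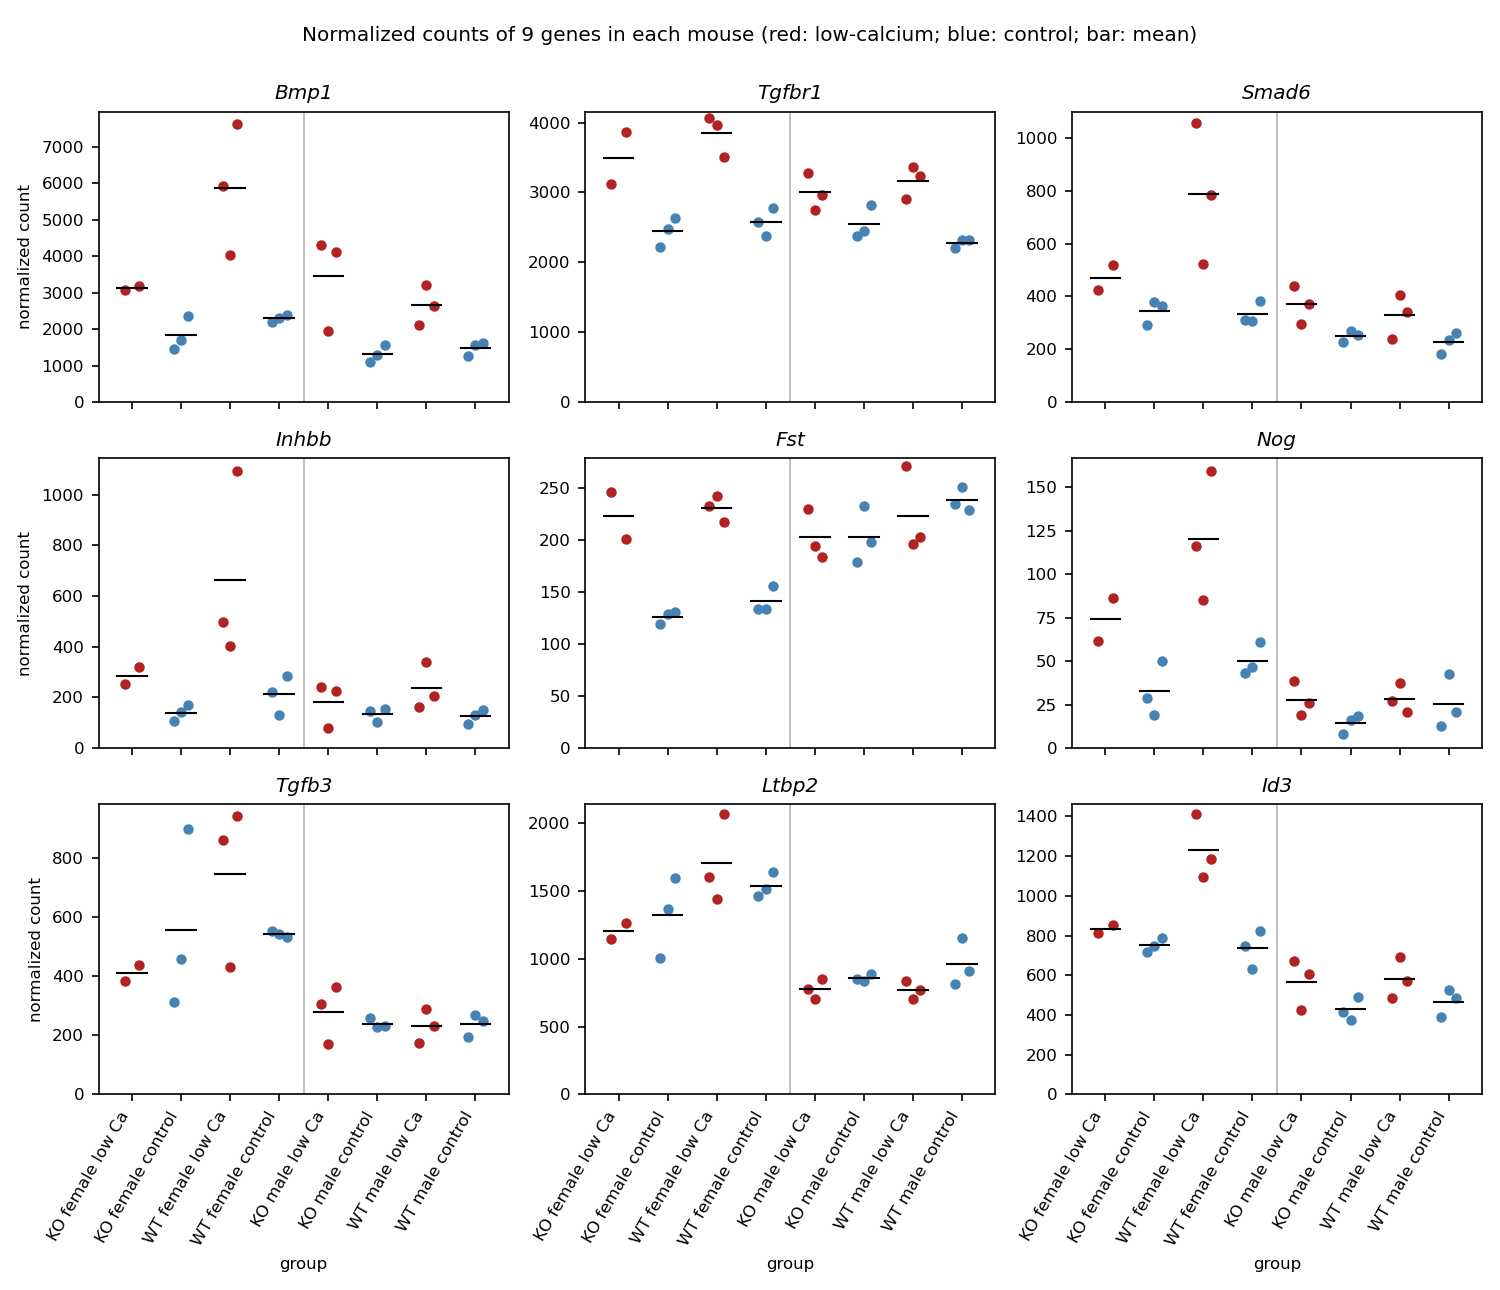
Normalized counts of 9 pathway genes in each mouse (points; red, low-calcium; blue, control), with group means as bars and females left of males. Bmp1 stands higher on the low-calcium diet in every pair of groups without overlap, Ltbp2 and Tgfb3 stand higher in females, and Fst is lowest in females on the control diet.

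Noggin, which binds BMPs and blocks them from their receptors, had the largest fold change by sex of all 50 genes. Nog had 61.8 and 86.7 normalized counts in KO females and 38.5, 18.9 and 26 in KO males on the low-calcium diet, and 28.7, 19.3 and 50.1 in KO females and 8.12, 16.4 and 18.3 in KO males on control. In WT mice it had 116, 85.5 and 159 in females and 26.9, 37.4 and 20.8 in males on the low-calcium diet, and 43.4, 46.8 and 60.9 in females and 12.5, 42.7 and 20.9 in males on control. Females exceeded males in each of the 4 pairs of groups, with a mean log2 fold change of 1.42 (SE 0.22, adjusted p = 8.53e-05), a 2.68-fold difference. Nog also rose with the low-calcium diet, by 0.92 (SE 0.22, adjusted p = 0.00304).

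Follistatin, which binds and neutralises activins, showed another pattern. Fst had 246 and 201 normalized counts in low-calcium and 119.5, 129 and 131 in control KO females, and 232, 242 and 218 in low-calcium and 134, 134 and 156 in control WT females. In males it had 230.3, 194 and 184 in low-calcium and 179, 233 and 198 in control KO mice, and 271, 196 and 203 in low-calcium and 235, 251 and 229 in control WT mice. The diets were separate in females and overlapped in males, where the log2 fold changes were -0.00, adjusted p = 0.996 in KO and -0.11, adjusted p = 0.711 in WT mice. In females they were 0.81 (SE 0.16, adjusted p = 0.00689) in KO and 0.71 (SE 0.14, adjusted p = 0.00257) in WT mice, and the call in KO females was lost without mouse 5 or mouse 6 (adjusted p = 0.0501 to 0.105). On the control diet Fst was lower in females than in males, with a log2 fold change of -0.67 (SE 0.14, adjusted p = 0.0159) in KO and -0.75 (SE 0.14, adjusted p = 0.0057) in WT mice. The call in KO mice was lost without mouse 20 or 27 (adjusted p up to 0.0904).

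The other binding proteins divided between diet and sex. Fstl1, a secreted follistatin-like glycoprotein, rose with the low-calcium diet by 0.41 (SE 0.08, adjusted p = 0.000611) and was higher in females by 0.68 (SE 0.08, adjusted p = 1.06e-05). It had 3582, 2809 and 3668 normalized counts in low-calcium and 1840.5, 1802 and 1943 in control WT females, and 2227, 1364 and 1981 in low-calcium and 1082, 1169 and 1211 in control KO males, without overlap in either. The call within KO males was lost without mouse 10, 12, 27 or 31 (adjusted p up to 0.118). Chordin-like 1 (Chrdl1), a BMP antagonist, had 898 to 1398 (median 1209.8) normalized counts in low-calcium mice and 1105 to 1609 (median 1464) in control mice and fell with the low-calcium diet, with a value of -0.26 (SE 0.07, adjusted p = 0.00669). Bambi, a pseudoreceptor that lacks a kinase domain, had 564 to 1345 (median 787) normalized counts in females and 347 to 694 (median 524) in males and was higher in females by 0.67 (SE 0.12, adjusted p = 0.000323). Chrd was higher in females by 0.77 (SE 0.26, adjusted p = 0.0234) at 4.18 to 40.0 normalized counts, and this call was lost without KO female mouse 6 (adjusted p = 0.0535). Grem1, another BMP antagonist, had -0.29, adjusted p = 0.0714 for sex, and Fstl3 had 0.07, adjusted p = 0.643, and neither passed the limma test.

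Among the SMADs, the genes of the inhibitory ones had the largest fold changes by diet. Smad6, which blocks BMP receptor SMADs, had 423 and 518 normalized counts in low-calcium and 292, 379 and 365 in control KO females, and 1055, 521 and 785 in low-calcium and 311, 305 and 383 in control WT females. In males it had 441, 297 and 372 in low-calcium and 227, 267 and 255 in control KO mice, and 239, 407 and 342 in low-calcium and 181, 233 and 262 in control WT mice. Only WT males overlapped between diets, and the mean log2 fold change was 0.68 (SE 0.11, adjusted p = 0.000176) for diet and 0.65 (SE 0.11, adjusted p = 0.000223) for sex. Smad7, which blocks both branches, had 977 to 3112 (median 1736) normalized counts in low-calcium mice and 999.7 to 2189 (median 1358) in control mice. It rose with diet by 0.40 (SE 0.11, adjusted p = 0.00677) and was higher in females by 0.52 (SE 0.11, adjusted p = 0.000678).

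The receptor SMADs and the common SMAD changed less with diet. The BMP SMAD genes Smad1 and Smad5 rose with the low-calcium diet by 0.17 (SE 0.06, adjusted p = 0.0267) and 0.18 (SE 0.04, adjusted p = 0.00316), and the Smad1 call was lost without mouse 6, 7 or 12 (adjusted p = 0.0507 to 0.0869). Smad1 had 609.5 to 1048 (median 699) normalized counts in females and 516 to 694 (median 608) in males, Smad5 had 1525 to 2285 (median 1732) normalized counts in females and 1377 to 1851 (median 1568) in males, and Smad9, the rarest of the 3 BMP SMADs per kb, had 213 to 510.4 (median 253) normalized counts in females and 82.9 to 239 (median 162) in males. In females Smad9 was higher by 0.74 (SE 0.14, adjusted p = 0.000533), Smad1 by 0.28 (SE 0.06, adjusted p = 0.000539) and Smad5 by 0.17 (SE 0.04, adjusted p = 0.00483). The TGF-beta SMAD gene Smad3 had 0.14, adjusted p = 0.0562 for sex and Smad2 had 0.01, adjusted p = 0.858, and both missed the limma threshold. Smad2 lay within 1478 to 1790.2 normalized counts over all mice. Smad4, the common SMAD, had 1375 to 1739 (median 1491) normalized counts in females and 1295 to 1612 (median 1426) in males and was higher in females by 0.09 (SE 0.04, adjusted p = 0.0474), a call lost in 19 of 23 fits without 1 mouse.

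Of the BMP target genes, Id3, an inhibitor of basic helix-loop-helix factors, had the largest fold change by sex. It had 1409, 1094 and 1187 normalized counts in WT females and 488, 691 and 571 in WT males on the low-calcium diet, and 749.7, 634 and 823 in WT females and 392, 524 and 483 in WT males on control. In KO mice it had 811 and 854 in females and 669, 424 and 609 in males on the low-calcium diet, and 715, 747 and 787 in females and 416, 374 and 492 in males on control. Females and males were separate in all 4 pairs of groups, with a mean log2 fold change of 0.78 (SE 0.08, adjusted p = 3.48e-06), and Id3 rose with the low-calcium diet by 0.40 (SE 0.08, adjusted p = 0.00109). Id1 had 529.9 to 995 (median 710.4) normalized counts in females and 306 to 753 (median 559) in males and was higher in females by 0.38 (SE 0.11, adjusted p = 0.0123). Id2 had 1261 to 1627 (median 1421) normalized counts in females and 1161 to 1694 (median 1298) in males, a value of 0.11 (SE 0.04, adjusted p = 0.0411) for sex, a call lost in 15 of 23 fits without 1 mouse, and its diet value was -0.11, adjusted p = 0.0562.

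The promoters of Smad6, Id2 and Id3 are shown because these are feedback and target genes of BMP signalling whose levels differed in the data. They are RefSeq windows on GRCm38.p6 of 250 bases before to 50 after the gene start, in lower case, with 2 motifs in capitals: GTCTAGAC, a palindromic SMAD binding element, and GGCGCC, a GC-rich element of SMAD1 and SMAD5. Both motifs read the same on either strand. The motifs do not overlap in these windows.
Smad6 (chr9:64022010-64022309, minus strand): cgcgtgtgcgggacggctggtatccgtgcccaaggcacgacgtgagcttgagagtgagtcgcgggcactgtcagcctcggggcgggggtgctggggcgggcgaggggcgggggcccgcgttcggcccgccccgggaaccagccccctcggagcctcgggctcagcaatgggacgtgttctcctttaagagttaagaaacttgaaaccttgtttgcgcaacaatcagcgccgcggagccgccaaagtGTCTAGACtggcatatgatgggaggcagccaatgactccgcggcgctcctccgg
Id2 (chr12:25096043-25096342, minus strand): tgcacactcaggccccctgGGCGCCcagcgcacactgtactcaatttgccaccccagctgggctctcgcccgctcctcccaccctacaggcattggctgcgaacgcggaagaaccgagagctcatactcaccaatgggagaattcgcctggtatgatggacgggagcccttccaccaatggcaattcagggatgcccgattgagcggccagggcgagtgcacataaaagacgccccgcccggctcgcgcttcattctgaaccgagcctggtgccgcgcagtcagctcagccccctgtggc
Id3 (chr4:136143572-136143871, plus strand): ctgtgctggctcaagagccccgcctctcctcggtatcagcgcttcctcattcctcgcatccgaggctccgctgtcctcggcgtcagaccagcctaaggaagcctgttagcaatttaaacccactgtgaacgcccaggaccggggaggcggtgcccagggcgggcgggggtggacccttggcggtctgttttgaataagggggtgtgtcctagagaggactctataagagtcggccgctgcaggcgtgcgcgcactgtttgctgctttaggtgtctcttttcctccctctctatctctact
GTCTAGAC spanned the gene start of Smad6, with its first base 4 bases before it, and was in 0.213% of all 32851 promoter windows. GGCGCC began 231 bases before the gene start of Id2 and was in 11.9% of all windows, and Id3 held neither. Windows were matched for 35 of the 51 genes, 43 windows in all. GTCTAGAC was in 1 of these 43 windows, that of Smad6, and GGCGCC was in 14. These matches describe the letters only.

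Bmp1, which encodes the protease that processes procollagens and chordin, had the largest fold change by diet. Bmp1 had 3072 and 3176 normalized counts in low-calcium and 1454, 1698 and 2369.6 in control KO females, and 5909, 4037 and 7625 in low-calcium and 2206, 2289 and 2371 in control WT females. In males it had 4311, 1942 and 4123 in low-calcium and 1085, 1277 and 1549 in control KO mice, and 2097, 3213 and 2638 in low-calcium and 1270.0, 1563 and 1616 in control WT mice. The diets did not overlap in any of the 4 pairs of groups, and the mean log2 fold change was 1.06 (SE 0.13, adjusted p = 7.96e-06), a 2.09-fold difference. Single comparisons were called by limma in WT females (1.31, adjusted p = 0.00233) and KO males (1.34, adjusted p = 0.00547), and the values in KO females and WT males were 0.79, adjusted p = 0.0913 and 0.82, adjusted p = 0.0647. Tgfbi, a matrix protein gene induced by TGF-beta, had 1038 to 2563 (median 1616) normalized counts in low-calcium mice and 1636 to 2555 (median 2025) in control mice. Its log2 fold change was -0.33 (SE 0.08, adjusted p = 0.00282) for diet and -0.25 (SE 0.08, adjusted p = 0.0158) for sex, so it was lower on the low-calcium diet and in females.

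Within single groups, KO and WT mice differed in 1 pathway gene. Smad1 had 613 and 699 normalized counts in KO females and 1015, 895 and 1048 in WT females on the low-calcium diet, with no overlap and a log2 fold change of -0.59 (SE 0.12, adjusted p = 0.0281). Of all genes, 1.24% were called in this comparison, and edgeR called the same gene while DESeq2 called 8. The result depended on single mice, since limma called 18 genes without mouse 17, 6 without KO male mouse 29, and 0 without mouse 5, 6, 16 or 18. The share of all genes called by DESeq2 or in these refits is not given. These counts are therefore not read as particular to the pathway. The median log2 fold change was -0.38 for the pathway genes and -0.02 for all genes, and 21 of 50 pathway genes were lower in each KO female than in every WT female, as were 18.3% of all genes. The osteoblast and bone matrix markers stood at 544999 to 557614 in KO females and 843165 to 1457840 in WT females on this diet, after digestions meant to remove osteoblasts, and the part of these cells was not tested.

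In the other comparisons of KO and WT mice limma called 0 pathway genes. Of all genes, 0% were called in females on control, 0.00639% in males on the low-calcium diet and 0.460% in males on control. At an unadjusted p under 0.05 there were 1, 3 and 6 of 50 pathway genes in these comparisons, against 9.66%, 3.52% and 6.76% of all genes, and edgeR and DESeq2 called 0 in each. Without mouse 20 limma called 1 gene in males on control, and the share of all genes called in that fit is not given. Gdf10 had the largest log2 fold change in males on control, with 168, 164 and 189 normalized counts in KO and 421, 589 and 319 in WT mice (-1.30, adjusted p = 0.152). Grem1 followed, with 247, 255 and 237 in KO and 394, 513 and 409 in WT mice (-0.82, adjusted p = 0.247). Mouse 24 was the highest WT male for both genes and stood apart in other tissue markers, with hepatocyte markers at 29765 and periosteum and tendon markers at 14127. Skeletal muscle markers summed to 824 to 940.0 in KO and 2841 to 3637 in WT males on control, and hepatocyte markers to 2807 to 3464 in KO and 5302 to 29765 in WT males. The part of these tissues was not tested.

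Whether the response to diet differed between genotypes or sexes was tested directly. The limma tests of genotype by diet called 0 pathway genes in females and in males, where 0.0128% and 0% of all genes were called, with 12 and 3 of 50 pathway genes at an unadjusted p under 0.05, against 16.8% and 5.38% of all genes. The tests of sex by diet called 0 in KO and in WT mice, where 0% and 0.173% of all genes were called, with 3 and 11 at an unadjusted p under 0.05, against 13.7% and 13.8% of all genes. DESeq2 called 2 genes for genotype by diet in females and 1 for sex by diet in KO mice, and edgeR called 0 in all 4 tests. Without mice 16 and 17 limma called some genes for genotype by diet in females and for sex by diet in WT mice. In that fit mouse 18 was the only WT female left on low calcium. Without mouse 17 limma called 3 in each, and without mouse 29 it called 1 for genotype by diet in females. The share of all genes called by DESeq2 or in these refits is not given. These counts are therefore not read as particular to the pathway. The larger number of calls in WT than in KO females is thus no test of a difference between them.

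Another 3 interactions, averaged over the remaining factor, were added after the data had been seen. For genotype by diet and for sex by genotype limma, edgeR and DESeq2 called 0 pathway genes each, with 4 and 6 at an unadjusted p under 0.05 by limma, against 10.1% and 11.3% of all genes. Without mice 16 and 17 limma called some genes in each, and the share of all genes called in that fit is not given. The sex by diet contrast called 1 pathway gene by limma, Fst, where 0.0512% of all genes were called. The rise of Fst with the low-calcium diet was larger in females than in males by 0.81 (SE 0.14, adjusted p = 0.0382) on the log2 scale, with nearly equal differences in KO (0.81) and WT mice (0.81). The call was lost with edgeR (adjusted p = 0.0945), with a pseudocount of 5 (adjusted p = 0.0502) and in 14 of 23 fits without 1 mouse (adjusted p up to 0.122), while DESeq2 gave an adjusted p of 0.00104.

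Other genes of the pathway, 74 more in the table of which 61 were tested, were summarised by the same test. With the low-calcium diet 28 rose and 4 fell, beside 16% and 15.4% of all genes, with a median log2 fold change of 0.18, and 29 were higher and 4 lower in females, beside 20.1% and 20%, with a median of 0.38. Of the other target genes 9 of 10 rose with the low-calcium diet (16% of all genes did), among them Hey1 (1.21, adjusted p = 3.15e-05), Sp7, a transcription factor of osteoblasts (0.84, adjusted p = 1.59e-05), and Ctgf (0.73, adjusted p = 0.00152). Of the latent TGF-beta activators 5 of 8 rose, beside the same 16%. Among them were Fbn2, a fibrillin of the matrix (1.04, adjusted p = 5.71e-05), and Itgav, a subunit of integrins that release latent TGF-beta (0.68, adjusted p = 5.73e-07). The study instead described Itgav as stable, without a difference between diets. Its calls between groups required a log2 fold change over 1, which the value here does not reach. For sex, Fbn2 (1.38, adjusted p = 7.52e-06) and Tll2, a protease related to Bmp1 (1.97, adjusted p = 9.01e-05), had large differences. Between KO and WT mice 0 of the 61 were called by limma in the mean comparison, where 0.0576% of all genes were, with 11 at an unadjusted p under 0.05 (9.04% of all genes). In females on the low-calcium diet 1 of the 61 was called, beside 1.24% of all genes: Twsg1, a secreted modulator of BMPs, which was lower in KO than in WT mice (-0.57, adjusted p = 0.0272).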

How the data were processed

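Libraries of RNA from bone chips enriched in osteocytes, 1 for each of 23 mice, were sequenced. The authors checked reads with FastQC 0.11.5, aligned them to mm10 with STAR 2.7.10a, counted uniquely mapped reads per gene by strand with featureCounts, and divided the counts by DESeq2 size factors. The annotation was not given in the sources used here. The deposited signal values are these normalized counts, and 100% were whole reads within 0.01 after rescaling by 1 factor per library. The authors filtered no reads of the WT females on low calcium for low mapping. They state that 1 KO female on the control diet was left out. In the data used here KO females were 3 mice on control and 2 on low calcium.

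Genes with at least 10 normalized counts in at least 2 libraries (15638 of 21402) were tested with limma 3.58.1 in R 4.3.3 on log2(normalized count + 1), with 1 mean per group over all 23 mice, an intensity trend and Benjamini-Hochberg adjustment over all genes, and every adjusted p is from limma unless another tool is named. Fold changes on this scale understate those of low genes. Mean contrasts weight the 4 strata equally. Recovered reads were tested with edgeR 4.0.16 (quasi-likelihood, TMM) and DESeq2 1.42.0. Scripts were tested on simulated data. Each library carries its own mouse number. Levels per kb use the union of exons in the GENCODE mouse annotation of GRCm38.

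The members and lists were chosen with earlier results of these data known. All 51 genes could be named, with each mouse's value or the lowest, median and highest for genes called in a mean contrast, and other pathway genes by smallest adjusted p. Alternatives were a pseudocount of 5, no filter, edgeR, DESeq2, DESeq2 at the study's thresholds, 2 groups alone, leaving out mice 16 and 17, and leaving out each mouse. Leaving out mice 16, 17 and 29, and 3 averaged interactions, were chosen after seeing the data. Reads were counted by strand, and 2 genes (Tgfbr3 and Smad5) share exon bases with another gene on their strand.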

Additional observations from a re-analysis of the deposited data

Results flagged for a closer look

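The response of Fst to the low-calcium diet differed between females and males by 0.81 on the log2 scale (SE 0.14, adjusted p = 0.0382, limma), in a contrast averaged over both genotypes and added after the data had been seen. Its log2 fold changes with diet were 0.81 in KO and 0.71 in WT females, against -0.00 in KO and -0.11 in WT males. Without any 1 mouse the difference was 0.74 to 0.89, with an adjusted p of 0.0208 to 0.122, and in each genotype alone it was 0.81 (adjusted p = 0.15 in KO and 0.122 in WT mice).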

How the results depend on the processing

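Of 133 calls of single pathway genes, none changed sign under any alternative run. They stayed past the threshold in 131 cases with edgeR, 133 with DESeq2, 132 with a pseudocount of 5, 122 without the filter, 118 without mice 16 and 17, 121 without mice 16, 17 and 29, and 24 at the study's thresholds (unadjusted p under 0.01 and a log2 fold change over 1). Of 68 calls between pairs of groups, 45 stayed when the 2 groups were fitted alone.

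Numbers of pathway genes called follow, without the share of all genes called in each run, so they are not read as particular to the pathway. With DESeq2 they were 4 for diet in KO females, 4 in KO males and 3 in WT males, 8 for genotype in females on low calcium, 7 and 10 for sex in KO mice on low calcium and control, 8 for sex in WT mice on control, 2 for genotype by diet in females and 1 for sex by diet in KO mice. With DESeq2 at the study's thresholds they were 2 for diet and 2 for sex in the mean contrasts, 1 for diet in KO females, 5 in WT females and 0 in WT males, 1 for genotype in males on control, 1, 16 and 1 for sex in KO mice on low calcium and WT mice on low calcium and control, 1 and 1 for genotype by diet in females and males, and 0 for sex by diet averaged over genotypes. The averaged sex by diet count was also 0 with edgeR and with a pseudocount of 5, and the sex count in KO mice on low calcium was 1 without the filter.

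Without mice 16 and 17 the counts were 2 for the genotype mean, 4 for diet in KO females and 5 in WT males, 13 for genotype in females on low calcium, 11 and 5 for sex in KO and WT mice on control, 4 for genotype by diet in females, 5 for sex by diet in WT mice, and 2, 1 and 3 for the averaged sex by diet, genotype by diet and sex by genotype contrasts. Without mice 16, 17 and 29 they were 3 for the genotype mean, 10, 9 and 6 for diet in KO females, KO males and WT males, 20, 1 and 1 for genotype in females on low calcium, males on low calcium and males on control, 14 and 13 for sex in KO and WT mice on control, 10 and 2 for genotype by diet in females and males, 1 and 14 for sex by diet in KO and WT mice, and 3, 2 and 17 for the same averaged contrasts. In both fits mouse 18 was the only WT female on low calcium and is assumed to vary like the other groups. With the 2 groups alone they were 1, 12, 0 and 10 for diet in KO females, WT females, KO males and WT males, 0 and 2 for genotype in females on low calcium and males on control, and 0 and 9 for sex in KO mice on low calcium and WT mice on control. The cause was not tested.

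Leaving out each mouse in turn gave 19 to 26 for the diet mean, 33 to 41 for the sex mean and 0 for the genotype mean. It gave 0 to 7, 9 to 27, 1 to 5 and 0 to 3 for diet in KO females, WT females, KO males and WT males, 0 to 18 and 0 to 1 for genotype in females on low calcium and males on control, and 0 to 5, 1 to 9, 24 to 36 and 1 to 6 for sex in KO mice on low calcium and control and WT mice on low calcium and control. It gave 0 to 3 for genotype by diet in females, 0 to 3 for sex by diet in WT mice and 0 to 1 for the averaged sex by diet contrast.

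No paired analysis was possible because mouse numbers are not shared between groups. Depth limits the low genes most, with 7217601 reads in the shallowest library.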
